A study of Mus musculus with 12 samples.

Results

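The 29 genes described here carry out cholesterol synthesis or regulate the sterol content of the cell. They were chosen by name as a pathway, with earlier results of these data known, and all 29 were found among the 34745 genes of the expression table and passed the filter on low counts in each of the 6 comparisons. They comprise 7 enzymes of the mevalonate branch, 11 enzymes from squalene to cholesterol, 5 genes of the SREBP control system, the sterol carrier Stard4, and 5 genes of the liver X receptor (LXR) branch.

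RNA was sequenced from the total femoral bone marrow cells of 12 male mice of the outbred strain ICR, which fell into 4 groups of 3. Normal mice received saline orally and by injection. The model group received oral saline and intraperitoneal cyclophosphamide, an alkylating drug that damages dividing cells, at 80 mg/kg/day from day 5 to day 7 of a 1 week course. The QJSB group received the same cyclophosphamide with oral Qi-Jing-Sheng-Bai granule, a herbal formula given against leucopenia, at 3 g/kg/day. The leucogen group received the same cyclophosphamide with oral leucogen, a drug used to raise white blood cell counts, at 20 mg/kg/day. Normal is therefore the only group without cyclophosphamide, and neither remedy was sequenced without it. Only the model group goes by its own name in the deposited table. The columns taken here as normal, leucogen and QJSB are headed Blank, Positive and Stilbene, and results on these groups rest on that reading. The comparisons share libraries, so a gene that was low in the 3 normal libraries, for example, stands higher in each comparison that uses them.

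Cells make cholesterol from acetyl-CoA through mevalonate and farnesyl diphosphate, which also feeds the prenylation of proteins and the synthesis of dolichol and ubiquinone. When sterol is scarce in the endoplasmic reticulum, the escort protein SCAP carries the SREBP transcription factors to the Golgi, where they are cut and released to switch on the genes of this pathway. When sterol is plentiful, INSIG proteins hold SCAP back, and oxysterols activate the LXR receptors, which induce the efflux pumps ABCA1 and ABCG1 and the ubiquitin ligase MYLIP. In the marrow, dividing precursors need sterol for new membranes, and the LXR branch is best known from macrophages.

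Library totals ran from 11172547 to 18545198 counts. Levels are given as CPM, that is counts scaled by library size with TMM factors, and counts of a member in a library lay between 30 and 2720. The marrow itself differed greatly between groups. Summed over 12 erythroid genes the level was 16700 to 18080 CPM in normal and 248.4 to 1182 CPM in the 9 cyclophosphamide libraries. The mature B cell gene Ms4a1 was at 207 to 258 CPM in normal and at 0 in 2 of the 3 model libraries. Late neutrophil genes (10) summed to 10170 to 10810 CPM in normal, 2025 to 6319 in model, 3325 to 18730 in QJSB and 14570 to 18680 in leucogen. Promyelocyte genes (6, led by Mpo and Elane) summed to 742.7 to 961.3 CPM in normal, 6653 to 9712 in model, 8281 to 9119 in QJSB and 3457 to 4618 in leucogen. The part of these shifts in any result below was not tested, and in bulk marrow fewer cells of a type and less RNA per cell cannot be told apart.

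**Figure D1:**
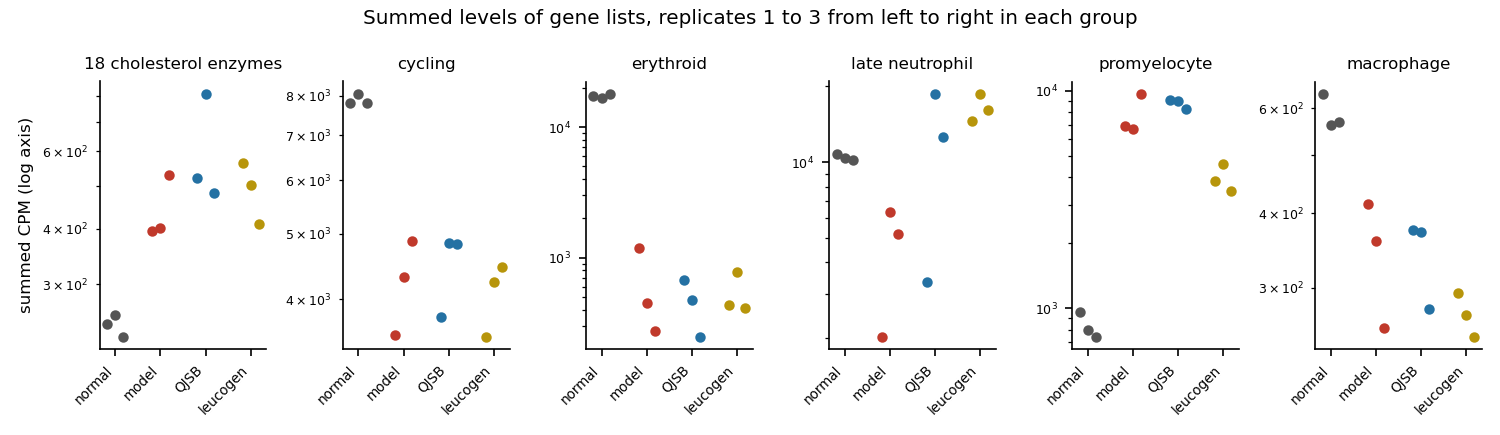
Summed CPM (log axis) of the 18 cholesterol enzymes and of 5 marker lists in each of the 12 libraries, with the points of a group in the order of their replicate numbers. The enzymes were higher in all 9 cyclophosphamide libraries (396.3 to 811.1 CPM) than in normal (228 to 254.8), while the erythroid, cycling and macrophage lists were lower in all 9 and the promyelocyte list was higher in all 9.

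The first comparison, model with normal, sets whole marrow after cyclophosphamide without a remedy beside marrow without cyclophosphamide. It cannot tell a change within cells from a change in the cells present. Genes are called past the adjusted cutoff when the absolute log2 fold change was over 0.585, which is the cutoff of the study's methods, and the Benjamini-Hochberg adjusted p of edgeR's quasi-likelihood test was under 0.05 over all genes tested. Of the 29 members 15 were called, 13 of them higher and 2 lower in model, beside 35.1% of all 14752 genes tested (16.1% higher and 19% lower). Of the 18 enzymes 10 rose, 0 fell and 8 were not called, and 17 of the 18 had a positive log2 fold change. The median log2 fold change was 0.643 over the members and 0.024 over all genes tested. Values of the 3 model libraries lay wholly above those of normal for 19 members and wholly below for 3, which is 22 members in all, beside 27.5%, 27.9% and 55.4% of all genes. At the study's own cutoff, the same fold with an unadjusted P under 0.05, 16 members were called beside 38.4% of all genes.

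In the mevalonate branch the largest difference was that of Fdps (farnesyl diphosphate synthase, chr3:89093588-89101959 in GRCm38), the enzyme at the branch point to sterols and prenyl groups. Its level was 12.6, 11.5 and 11.9 CPM in the normal libraries and 44.2, 56.3 and 83.1 CPM in the model libraries. Every model library stood far above all normal libraries, although the model libraries themselves were spread. The fitted difference was 5.05-fold (log2 2.34 ± 0.23 SE, edgeR adjusted p = 0.000137). The annotation places a small nuclear RNA and a predicted gene on the same strand overlapping Fdps, so some of its reads could belong to them.

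Hmgcs1 (chr13:119690462-119708086), which encodes the synthase that condenses acetyl units into HMG-CoA, was at 33.9, 34.0 and 32.9 CPM in normal and at 60.4, 69.9 and 81.1 CPM in model. The normal libraries lay close together and every model library was above them. The rise was 2.08-fold (log2 1.06 ± 0.14 SE, edgeR adjusted p = 0.000630). The mevalonate kinase gene Mvk and the mevalonate diphosphate decarboxylase gene Mvd, which act further along the branch, were expressed at much lower levels. Mvk rose from 4.07 ± 0.64 to 10.4 ± 2.28 CPM (SD, n = 3; 2.53-fold, edgeR adjusted p = 0.00264). Mvd rose from 2.57 ± 0.44 to 6.40 ± 1.35 CPM (2.47-fold, edgeR adjusted p = 0.00455). Acat2, the cytosolic thiolase that starts the branch, rose 1.74-fold (12.5 ± 1.25 to 21.9 ± 2.87 CPM, edgeR adjusted p = 0.00593), and its reads may be shared with a near-identical paralog in the mouse genome.

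The 2 mevalonate enzymes that were not called were Pmvk and Idi1. For Pmvk, the phosphomevalonate kinase, model lay above normal in every library (8.20 to 8.70 against 5.59 to 7.08 CPM), but the difference was 1.29-fold with an edgeR adjusted p of 0.150. Idi1, the isomerase that supplies the unit from which prenyl chains start, was uneven in normal, with 13.6, 50.7 and 18.5 CPM. Its coefficient of variation of 73.2% was the highest of the 29 members in normal, where the median was 8.5%. The model values of 39.0, 19.7 and 42.5 CPM lay within that range, so a difference could not be told from the spread between mice.

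Among the 11 enzymes that turn farnesyl diphosphate into cholesterol, 5 were called, all higher in model, beside 16.1% of all genes tested. Hsd17b7, a sterol ketoreductase, was at 6.65, 6.07 and 6.21 CPM in normal and at 12.7, 13.2 and 13.9 CPM in model. These groups were tight and well apart, with a 2.09-fold rise (log2 1.06 ± 0.17 SE, edgeR adjusted p = 0.00151). Ebp, the sterol isomerase, rose 1.94-fold (17.6 ± 1.42 to 34.5 ± 11.4 CPM, SD, n = 3). Nsdhl, the decarboxylating sterol dehydrogenase that acts just before Hsd17b7, rose 1.80-fold (7.99 ± 1.04 to 14.5 ± 2.65 CPM). Dhcr7, the reductase of the last step, rose 1.79-fold (9.54 ± 1.05 to 17.2 ± 4.87 CPM), and Cyp51, the lanosterol demethylase, rose 1.59-fold (19.1 ± 2.36 to 30.6 ± 5.31 CPM). The edgeR adjusted p of these 4 lay between 0.00993 for Nsdhl and 0.0216 for Dhcr7. These calls were not all stable to the choice of mice. Nsdhl was not called without normal replicate 2 (log2 0.749), Cyp51 without normal replicate 1 or 3 or model replicate 3 (log2 0.579 to 0.696), and Dhcr7 without normal replicate 2 or 3 or model replicate 1 or 3 (log2 0.677 to 0.845). Cyp51 overlaps Akap9 on the opposite strand, and whether the counting used strand is not given in the sources used here.

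The other 6 enzymes of this segment did not reach the adjusted cutoff. For Sqle (squalene epoxidase), Lss (lanosterol synthase), Tm7sf2 (a sterol reductase) and Msmo1 (the methylsterol monooxygenase), all 3 model libraries lay above all 3 normal libraries, with differences of 1.48-, 1.39-, 1.49- and 1.56-fold. Their edgeR adjusted p values were 0.0529, 0.0581, 0.0423 and 0.0572. Tm7sf2 missed the fold cutoff alone, with a log2 fold change of 0.576. Sc5d, a sterol desaturase, was at 21.2, 8.46 and 19.4 CPM in normal and 31.9, 16.8 and 41.0 CPM in model, which overlap. Fdft1, the squalene synthase that commits farnesyl diphosphate to sterols, was the only enzyme with a negative estimate. Its level was 20.6, 18.7 and 19.7 CPM in normal and 14.4, 19.6 and 22.8 CPM in model (0.956-fold, log2 -0.07 ± 0.19 SE, edgeR adjusted p = 0.807), and the groups overlapped. Fdft1 overlaps the cathepsin gene Ctsb on the opposite strand.

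Of the 5 SREBP control genes 3 rose and 2 were not called, while 16.1% of all genes tested rose. Scap, the escort of SREBP (chr9:110333288-110384950), was at 46.8, 40.3 and 42.5 CPM in normal and at 94.4, 74.2 and 95.2 CPM in model. The groups were well apart, with a rise of 2.02-fold (log2 1.01 ± 0.14 SE, edgeR adjusted p = 0.000773). Insig1, the retention protein that is itself an SREBP target, was at 17.9, 19.7 and 19.8 CPM in normal and at 33.8, 45.6 and 44.1 CPM in model (2.14-fold, edgeR adjusted p = 0.000965). Its paralog Insig2 was at 23.5, 20.7 and 16.8 CPM in normal and at 15.4, 15.4 and 17.1 CPM in model, an overlap, with a difference of 0.781-fold (edgeR adjusted p = 0.129). Srebf1, the SREBP gene best known for fatty acid synthesis, rose 1.66-fold (21.1 ± 1.33 to 35.3 ± 6.38 CPM, edgeR adjusted p = 0.00740). Srebf2, the SREBP gene best known for cholesterol synthesis, was higher in every model library (71.2 to 109.6 against 59.3 to 66.2 CPM) but at 1.38-fold was not called (edgeR adjusted p = 0.0613). Srebf1 overlaps Rai1 on the opposite strand.

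Of the 5 LXR branch genes 2 were called, both lower in model, beside 19% of all genes tested. Mylip (chr13:45389742-45412019), whose product marks lipoprotein receptors for degradation, was at 64.4, 64.4 and 74.9 CPM in normal and at 18.4, 15.4 and 17.7 CPM in model. It fell to 0.251 of its normal level (log2 -1.99 ± 0.14 SE, edgeR adjusted p = 2.99e-05), the largest fall and the smallest adjusted p of the 29 members in this comparison. Abca1, the cholesterol efflux pump, was at 81.0, 77.6 and 84.5 CPM in normal and at 54.9, 67.0 and 37.3 CPM in model, a fall to 0.652 of normal (edgeR adjusted p = 0.0408). That call was kept in 7 of 15 alternative analyses, where its log2 fold change ran from -0.81 to -0.41. Without normal replicate 1, 2 or 3 or model replicate 1 or 3 it was lost, with log2 fold changes of -0.649 to -0.41. Abcg1, the second efflux pump, was at 46.8, 41.8 and 42.7 CPM in normal and at 29.6, 28.9 and 29.6 CPM in model, with no overlap, and at a log2 fold change of -0.584 (edgeR adjusted p = 0.00603) it missed the fold cutoff. The receptor genes Nr1h2 and Nr1h3, which encode LXR beta and LXR alpha, overlapped between the groups. Nr1h3 was the more weakly expressed, at 3.68 to 4.19 CPM in normal and 2.76 to 3.79 CPM in model. Stard4, which shuttles sterol between membranes, was at 53.7, 90.6 and 53.0 CPM in normal and 86.9, 79.8 and 65.8 CPM in model, an overlap with 1 high normal library.

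Macrophage genes were also lower in model. The 11 genes of that list summed to 562.6 to 635 CPM in normal and 257.1 to 414 CPM in model, and none was at 0 in any library of either group. Of the defining markers, C1qa was at 21.2 to 22.2 CPM in normal and at 6.16 to 8.58 CPM in model, whereas Adgre1 overlapped between the groups (43.3 to 49 and 20.7 to 55.1 CPM). Monocyte genes (6) were higher, at 1367 to 1534 CPM in normal and 3272 to 6166 CPM in model. The cycling list (10 genes) was at 7817 to 8062 CPM in normal and at 3535 to 4874 CPM in model. Most of that sum was the proliferation marker gene Mki67, at 4920 to 5100 CPM in normal and 1610 to 2440 CPM in model. Of the 10 cycling genes 3 fell past the adjusted cutoff and 0 rose, beside 19% and 16.1% of all genes tested. Their estimates were positive for 3, with a median log2 fold change of -0.465 beside 0.024 over all genes. The part of these changes in the values of Abca1, Abcg1, Mylip and the enzymes was not tested.

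**Figure D2:**
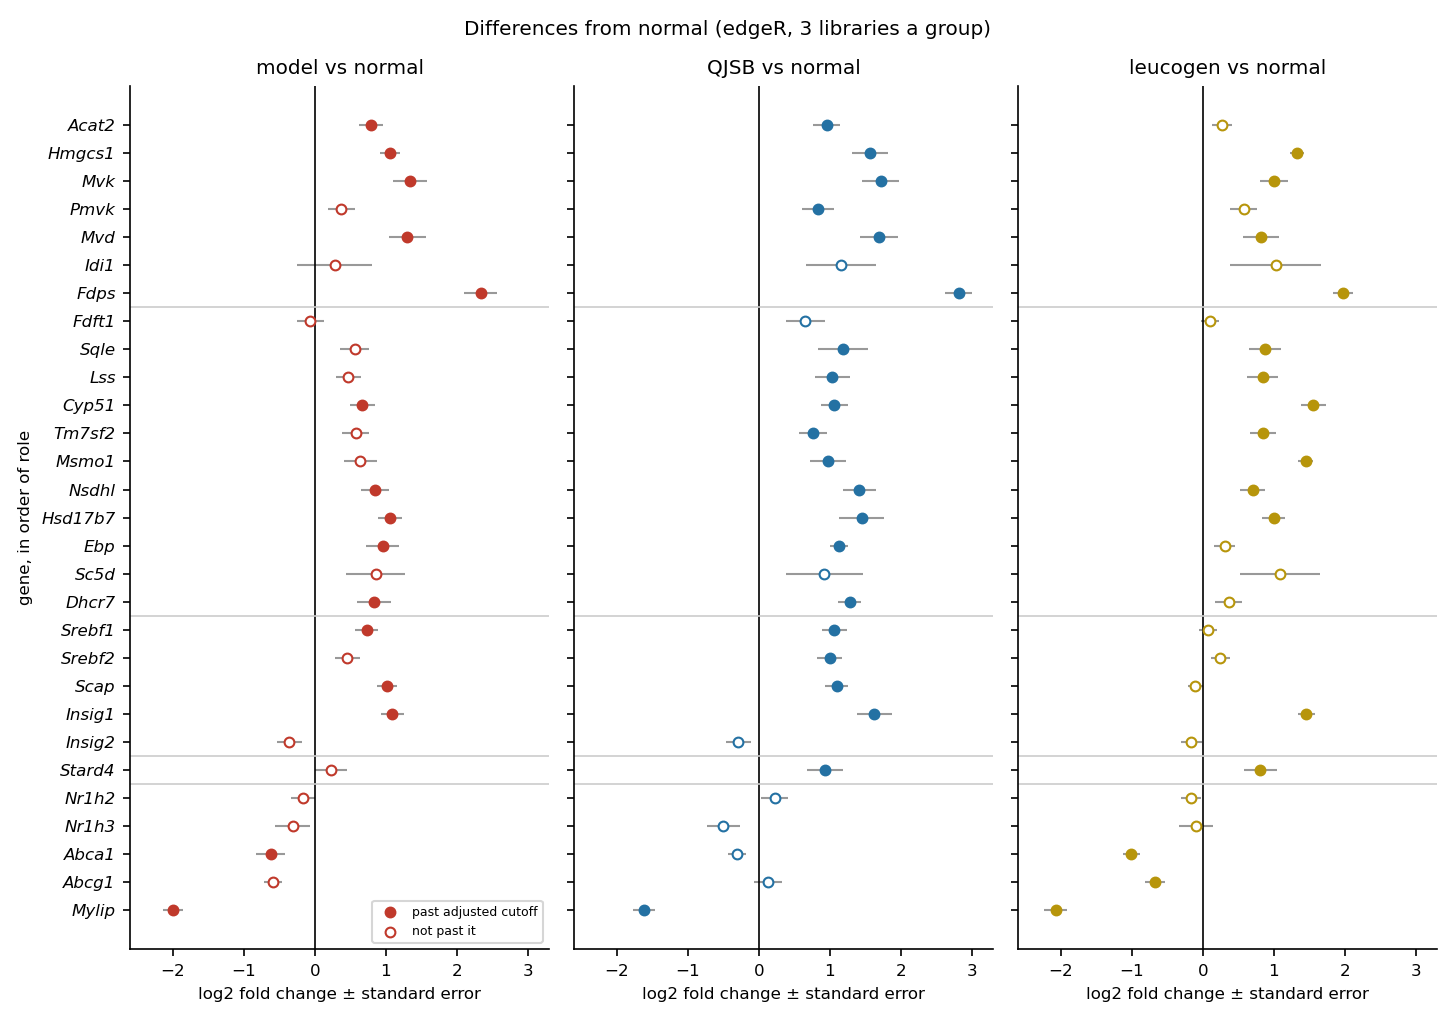
Log2 fold change against normal, with its standard error, of the 29 genes in order of role (edgeR, 3 libraries a group), for model, QJSB and leucogen. Filled points passed the adjusted cutoff. Fdps was the highest and Mylip the lowest point in all 3 panels, and Scap and Srebf1 stood above 0 in model and QJSB but near 0 in leucogen.

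Promoter sequences of the members were searched for known motifs of the pathway, and some are shown as a description. RefSeq (GRCm38.p6) gave windows from 250 bases before to 50 bases after the start for 24 of the 29 genes, 33 windows in all. Sqle, Abcg1, Fdps, Fdft1 and Stard4 had none. The windows were searched on both strands for the sterol regulatory element TCACNCCAC, the CCAAT box CCAAT to which NF-Y binds beside SREBP, and an LXR element of the DR4 type, which is AGGTNA and GGTCA with 5 free bases between them. The 6 sequences below are the 250 bases before the start, written in the direction of the gene, of 4 enzymes that rose, of Scap, which rose with them, and of Mylip, which fell. Capitals mark CCAAT boxes (CCAAT, or ATTGG where the box is on the other strand) and, in Hmgcs1, the sterol regulatory element TCACCCCAC. They come from chr13:119690101-119690350 (+) for Hmgcs1, chr5:114444019-114444268 (+) for Mvk, chrX:8193513-8193762 (-) for Ebp, chrX:72918271-72918520 (+) for Nsdhl, chr9:110333038-110333287 (+) for Scap and chr13:45389492-45389741 (+) for Mylip.
Hmgcs1: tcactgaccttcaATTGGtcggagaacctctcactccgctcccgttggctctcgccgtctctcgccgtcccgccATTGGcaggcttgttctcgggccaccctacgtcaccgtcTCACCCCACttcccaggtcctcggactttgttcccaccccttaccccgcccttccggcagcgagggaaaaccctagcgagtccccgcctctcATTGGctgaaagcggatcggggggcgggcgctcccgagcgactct
Mvk: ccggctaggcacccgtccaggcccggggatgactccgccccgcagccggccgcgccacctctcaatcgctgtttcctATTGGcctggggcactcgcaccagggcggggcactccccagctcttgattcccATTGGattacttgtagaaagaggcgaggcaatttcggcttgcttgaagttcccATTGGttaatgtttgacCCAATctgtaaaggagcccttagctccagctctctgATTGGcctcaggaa
Ebp: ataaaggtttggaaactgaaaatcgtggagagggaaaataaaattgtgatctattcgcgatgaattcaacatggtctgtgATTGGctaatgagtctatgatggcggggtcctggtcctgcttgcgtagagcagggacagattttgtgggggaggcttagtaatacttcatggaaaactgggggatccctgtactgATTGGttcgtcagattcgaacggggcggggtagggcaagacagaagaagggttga
Nsdhl: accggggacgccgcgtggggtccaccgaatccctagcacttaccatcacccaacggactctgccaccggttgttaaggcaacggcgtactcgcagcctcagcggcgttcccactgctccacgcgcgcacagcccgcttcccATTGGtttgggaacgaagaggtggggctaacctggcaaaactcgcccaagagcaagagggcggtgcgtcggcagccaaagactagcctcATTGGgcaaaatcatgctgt
Scap: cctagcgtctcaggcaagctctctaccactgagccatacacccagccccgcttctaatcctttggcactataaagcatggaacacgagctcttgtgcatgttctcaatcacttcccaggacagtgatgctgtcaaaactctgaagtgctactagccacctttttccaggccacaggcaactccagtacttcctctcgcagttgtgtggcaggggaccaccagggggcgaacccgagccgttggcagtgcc
Mylip: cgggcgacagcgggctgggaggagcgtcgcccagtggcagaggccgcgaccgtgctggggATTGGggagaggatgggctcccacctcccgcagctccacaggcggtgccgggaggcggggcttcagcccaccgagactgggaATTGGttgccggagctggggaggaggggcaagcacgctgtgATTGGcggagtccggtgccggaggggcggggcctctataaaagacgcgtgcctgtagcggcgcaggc

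A CCAAT box stood in a window of 14 of the 15 enzymes that had one (93.3%), namely in 5 of 6 mevalonate genes and 9 of 9 genes from squalene to sterol. The share was 41.1% among all 27025 genes with a window and 42.9% among the 10038 of them that were tested in model against normal. Acat2, which was called higher in model, was the enzyme without a match. Pmvk, Idi1, Lss, Tm7sf2, Msmo1 and Sc5d, which were not called there, all had a box, so a box did not go with a call. Among the SREBP control genes 4 of 5 had a match, Scap being the exception, and of the LXR branch 1 of 4 did, which was Mylip with its 3 boxes. The 5 boxes of Mvk began between 173 and 14 bases before the start. The letters of the sterol regulatory element were found in 1 of 24 members, against 1.44% of all genes. That member was Hmgcs1, where they began 137 bases before the start. The letters of the LXR element were found in 0 of 24 members and in 0.0962% of all genes. Only exact matches were counted for each motif, so a window without a match may still hold a site that differs in a letter. A match describes letters in the window and not binding, and the shares are given without a test.

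The plot of levels by library shows a selection of the members, some of which differed between the cyclophosphamide groups. QJSB compared with normal had 21 of 29 members called, 20 higher and 1 lower, beside 37.9% of all 14817 genes tested (18% higher, 19.9% lower), and 23 beside 41.6% at the study's cutoff. Leucogen compared with normal had 16 called, 13 higher and 3 lower, beside 37.7% of 14637 genes (17.8% higher, 19.8% lower), and 16 beside 39.4% at the study's cutoff. The median log2 fold change of the members was 1.03 in QJSB and 0.701 in leucogen, with -0.008 to 0.024 over all genes. All 3 comparisons use the same normal libraries, so their counts are not independent of each other.

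Side by side, Fdps was 5.05-fold its normal level in model, 7.06-fold in QJSB and 3.93-fold in leucogen, and it was called in each. Hmgcs1 was 2.08-, 2.98- and 2.51-fold and Insig1 2.14-, 3.09- and 2.75-fold its normal level in model, QJSB and leucogen, again called in each. Sqle was 1.48-, 2.28- and 1.84-fold its normal level in these groups (edgeR adjusted p = 0.0529, 0.0295 and 0.00935). Dhcr7 was 1.79-, 2.43- and 1.29-fold (edgeR adjusted p = 0.0216, 0.000666 and 0.127) and Srebf2 1.38-, 2.00- and 1.19-fold (edgeR adjusted p = 0.0613, 0.00292 and 0.143). The call of Sqle in QJSB was lost on leaving out any library but QJSB replicate 3, where its log2 fold change ran from 0.781 to 1.268, and that of Dhcr7 or Srebf2 in QJSB on leaving out none. Those of Pmvk, Tm7sf2, Stard4 and Msmo1 in QJSB were also lost on leaving out certain libraries. Without normal replicate 1, 16 members were called in QJSB, beside 30.1% of all genes. In leucogen the calls of Mvd, Stard4 and Abcg1 against normal were lost in this way. There, 13 members were called without leucogen replicate 1, beside 36.3% of all genes.

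**Figure D3:**
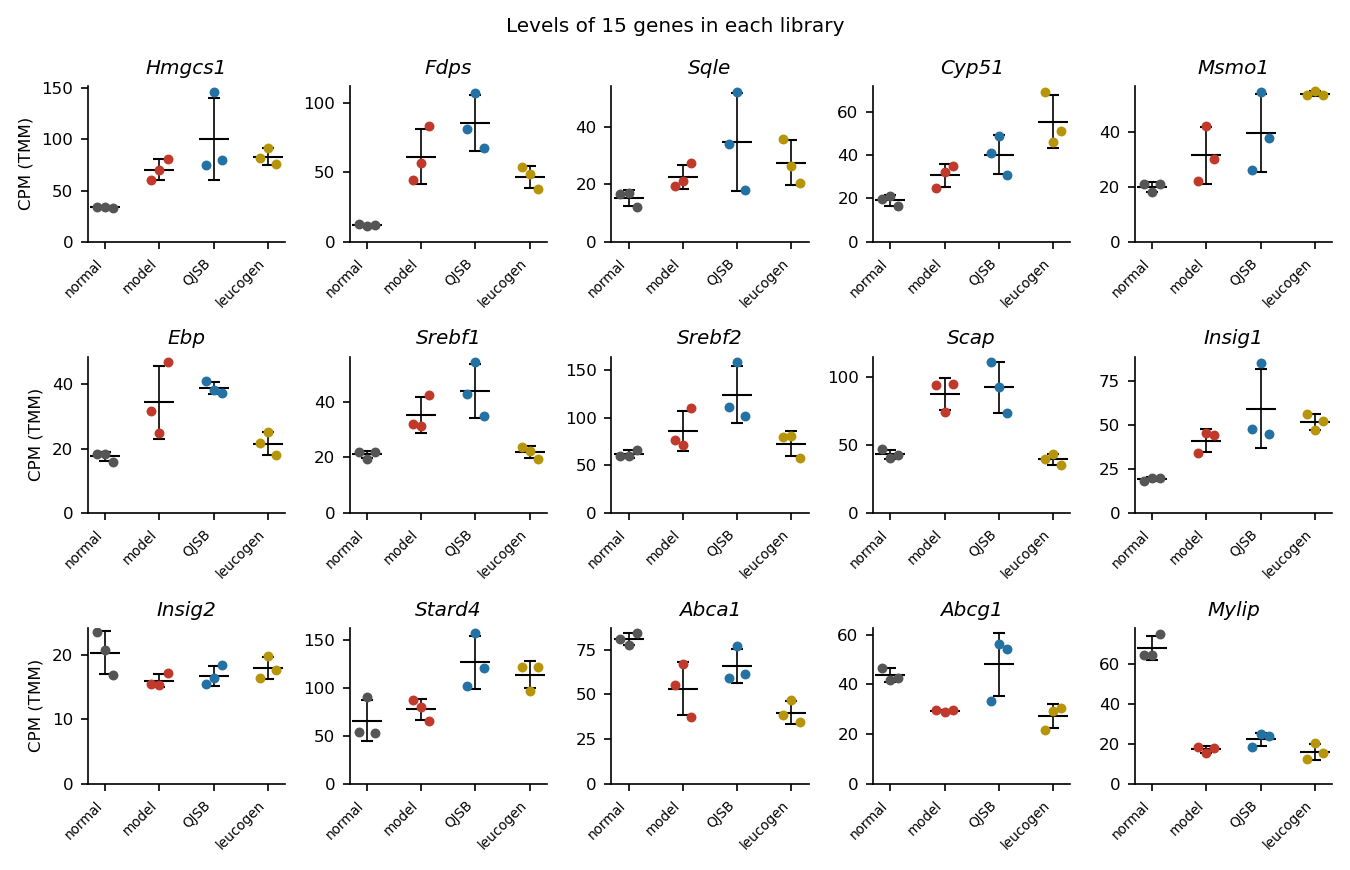
CPM of 15 of the 29 genes in each library by group, with the mean and SD of 3 libraries as a bar. Scap and Srebf1 in leucogen (35.6 to 43.7 and 19.6 to 23.8 CPM) lay at the level of normal, Cyp51 and Msmo1 had their highest means in leucogen, and QJSB replicate 2 was the highest point for Hmgcs1, Fdps and Sqle.

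Leucogen compared with model asks what the drug changed in marrow that had received cyclophosphamide. Of the 29 members 4 were called, 2 higher and 2 lower in leucogen, beside 23.1% of all 14184 genes tested (11.6% higher and 11.5% lower), so the members' share of 13.8% was below that of all genes. The median log2 fold change was -0.020 for the members and -0.053 for all genes. Scap was the clearest difference. It stood at 39.6, 43.7 and 35.6 CPM in leucogen, against 94.4, 74.2 and 95.2 CPM in model. Every model library stood above every leucogen library, and Scap in leucogen was 0.456 of its level in model (log2 -1.13 ± 0.15 SE, edgeR adjusted p = 0.00261). Against normal the difference of Scap in leucogen was 0.930-fold (edgeR adjusted p = 0.450), and the call against model was kept in 15 of 15 alternatives.

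Srebf1 was at 23.8, 22.4 and 19.6 CPM in leucogen and at 31.9, 31.2 and 42.6 CPM in model. It was 0.630 of its level in model (log2 -0.67 ± 0.17 SE, edgeR adjusted p = 0.0210) and 1.05-fold its level in normal (edgeR adjusted p = 0.633), a call kept in 10 of 15 alternatives. It was lost without model replicate 3 or leucogen replicate 1, 2 or 3, with log2 fold changes of -0.722 to -0.488. Insig1 did not follow them. It stood at 56.3, 47.2 and 52.3 CPM in leucogen, all above the highest model library of 45.6 CPM, although the difference of 1.28-fold was not called (edgeR adjusted p = 0.129). Srebf2 overlapped between the groups, with 57.5 to 80.4 CPM in leucogen.

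Cyp51 and Msmo1, which act in turn on lanosterol and its products, were the 2 members higher in leucogen than in model. Cyp51 was at 69.2, 45.8 and 51.1 CPM in leucogen and at 24.6, 32.3 and 34.8 CPM in model (1.83-fold, log2 0.87 ± 0.20 SE, edgeR adjusted p = 0.0140). Msmo1 was at 53.6, 55.1 and 53.8 CPM in leucogen, the tightest group of any member there with a coefficient of variation of 1.5%, and at 22.1, 42.5 and 30.1 CPM in model (1.74-fold, edgeR adjusted p = 0.0280). The groups did not overlap for either gene. Against normal Cyp51 was 2.95-fold and Msmo1 2.73-fold higher in leucogen (edgeR adjusted p = 5.69e-05 and 2.34e-06). The call of Cyp51 against model was kept in 14 and that of Msmo1 in 8 of 15 alternatives. Cyp51 was not called without leucogen replicate 1 (log2 0.690), and Msmo1 without model replicate 1 or 3 or leucogen replicate 1, 2 or 3 (log2 0.607 to 0.812).

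Other enzymes differed in sign between leucogen and model, with 10 of 18 positive and 8 negative. Acat2 was lower in every leucogen library (13.9 to 15.5 against 18.7 to 24.1 CPM) with an edgeR adjusted p of 0.0443, but its log2 fold change of -0.54 did not reach the cutoff. At the study's cutoff 5 members were called, beside 29.6% of all genes, and Ebp was the one added (0.633-fold, edgeR adjusted p = 0.0654), with 21.6, 25.0 and 17.9 CPM in leucogen against 31.7, 24.7 and 47.0 CPM in model. Stard4 was higher in every leucogen library (97.0 to 122.1 against 65.8 to 86.9 CPM, edgeR adjusted p = 0.0328) and short of the fold cutoff at log2 0.57. None of the 5 LXR branch genes was called between these groups, and Mylip stood at 12.4, 20.2 and 15.2 CPM in leucogen. Leaving out leucogen replicate 1 left 1 called member, Scap, beside 11.8% of all genes, while leaving out model replicate 2 gave 8, beside 27.2%. Leaving out model replicate 3 or leucogen replicate 3 gave 2 each, beside 18.8% and 8.44%. With all libraries the share over all genes was 23.1%. The late neutrophil sum did not overlap between model and leucogen (2025 to 6319 and 14570 to 18680 CPM), nor did the promyelocyte sum (6653 to 9712 and 3457 to 4618 CPM), and their part in the differences of Scap, Srebf1, Cyp51 and Msmo1 was not tested.

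QJSB compared with model asks the same of the herbal granule. With adjusted p values 0 of 29 members were called, beside 0% of all 14486 genes tested. edgeR's quasi-likelihood test gave an unadjusted P under 0.05 for 723 genes (4.99%) and for 4 members, and DESeq2 called 8 genes and 0 members at the adjusted cutoff. At the study's cutoff with an unadjusted P, 4 of 29 members were called, all higher in QJSB, beside 3.08% of all genes (1.68% higher). The estimate was positive for 28 of the 29 members, with a median log2 fold change of 0.364 against -0.016 over all genes, but groups overlapped for 24 of the 29. The other 5 members lay wholly higher in QJSB, beside 9.84% of all genes apart in either direction (4.44% higher and 5.4% lower).

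The 4 were Idi1, Fdft1, Stard4 and Abcg1, each with an edgeR adjusted p of 0.767. Idi1 stood at 50.4, 85.8 and 49.8 CPM in QJSB and 39.0, 19.7 and 42.5 CPM in model (1.81-fold). Fdft1 stood at 20.8, 45.6 and 26.9 CPM in QJSB and 14.4, 19.6 and 22.8 CPM in model (1.62-fold), an overlap that 1 high library pulled upward. Stard4 was at 102.1, 156.6 and 120.2 CPM in QJSB, all above the highest model library of 86.9 CPM (1.61-fold, log2 0.68 ± 0.20 SE). Abcg1 was at 33.4, 56.4 and 54.3 CPM in QJSB, against 28.9 to 29.6 CPM in model (1.61-fold, log2 0.69 ± 0.22 SE). The QJSB values of Abcg1 spanned the normal range of 41.8 to 46.8 CPM, and its difference from normal was 1.09-fold (edgeR adjusted p = 0.627).

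In these genes QJSB replicate 2 stood apart from the other 2 QJSB libraries. Across the expressed genes it was QJSB replicate 1 that differed most from the others of its group. The chi-square per degree of freedom, which measures how far 2 libraries differ, was 99.6 and 79 for its pairs with replicates 2 and 3. It was 27.7 between replicates 2 and 3. QJSB replicate 2 had the highest level of its group for 24 of the 29 members and for 16 of the 18 enzymes, and the highest level of all 12 libraries for 19 members and 13 enzymes. Hmgcs1 was at 146.4 CPM there and at 74.8 and 79.9 CPM in the other 2 QJSB libraries, which lie within the model range of 60.4 to 81.1 CPM. Sqle was at 52.4 CPM there and at 34.1 and 18.1 CPM in the others. The mean log2 level of the 18 enzymes relative to normal was 1.66 in that library and 1.06 and 0.945 in the other 2, against 0.720, 0.696 and 1.06 in model and 1.07, 0.926 and 0.606 in leucogen. Without QJSB replicate 2, 0 members passed the study's cutoff, beside 1% of all genes tested. The median of the members was then 0.176, beside 0.001 over all genes. Without QJSB replicate 1 there were 8, beside 11.6% of all genes, and without QJSB replicate 3 there were 9, beside 2.09%. Without model replicate 2 there were 2, beside 1.66%, and without model replicate 3 there were 6, beside 7.06%. The share over all genes thus moved between these settings too. QJSB replicate 2 also had the highest late neutrophil sum of all libraries, 18730 CPM. That sum was 3325 CPM in QJSB replicate 1, 12570 in QJSB replicate 3 and 18680 in leucogen replicate 2. The part of late neutrophil genes in the enzyme levels was not tested. With the replicate number as a block, 3 members passed the study's cutoff and 0 the adjusted cutoff, beside 5.73% and 0.124% of all genes. Whether that number pairs the libraries of these 2 groups is not known.

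**Figure D4:**
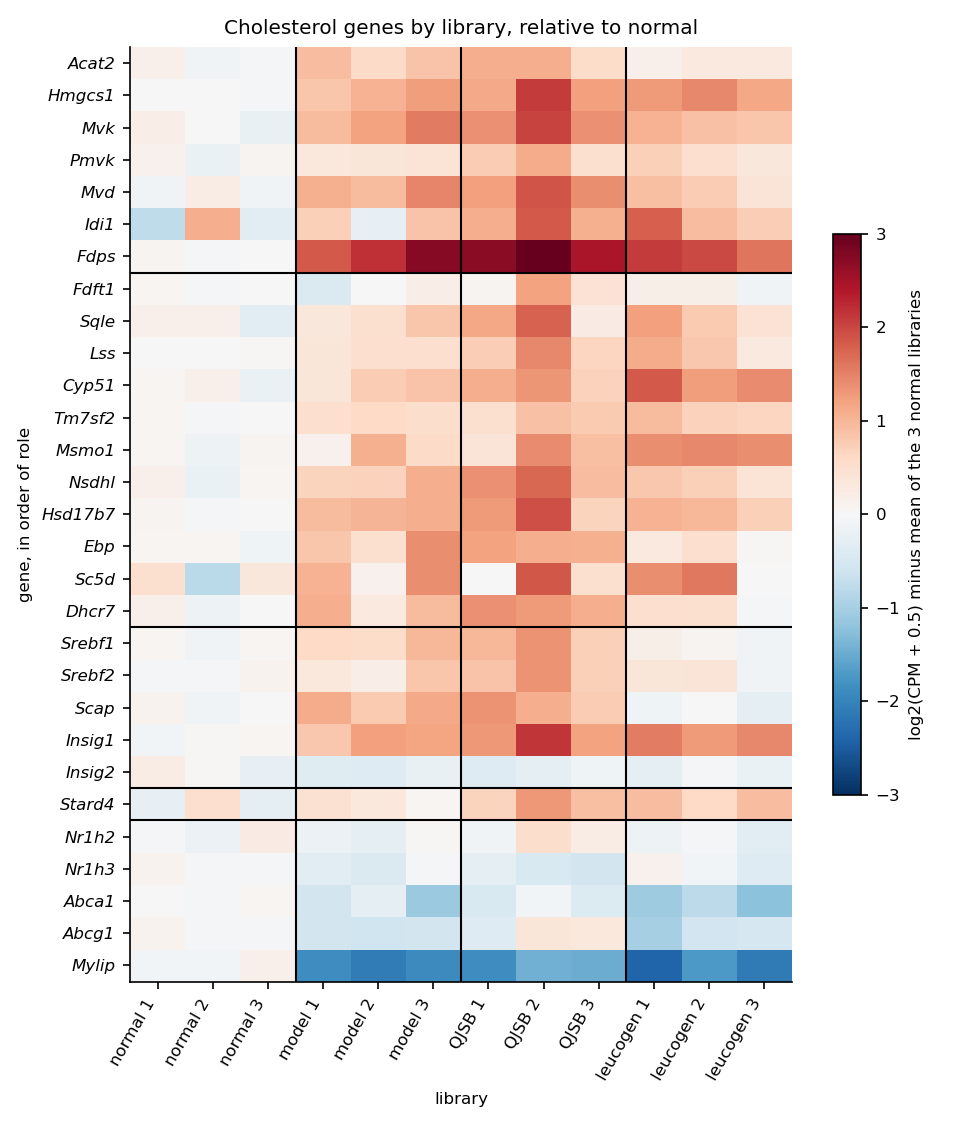
Level of each of the 29 genes in each library as log2(CPM + 0.5) minus the mean of the 3 normal libraries, with rows in order of role and groups set off by lines. Red is higher and blue lower than normal. The column of QJSB replicate 2 is the deepest red for 13 of the 18 enzymes, and the Mylip row is blue in all 9 cyclophosphamide libraries.

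Between the remedies, QJSB and leucogen, 11 of 29 members were called, all 11 higher in QJSB, beside 24.6% of all 14266 genes tested (12.9% higher in QJSB, 11.7% lower). At the study's cutoff there were 12 beside 30.6%. They were 6 enzymes (Acat2, Mvd, Fdps, Nsdhl, Ebp and Dhcr7), the control genes Srebf1, Srebf2 and Scap, and the pumps Abca1 and Abcg1. Scap was at 111.1, 93.0 and 73.7 CPM in QJSB and at 35.6 to 43.7 CPM in leucogen, a 2.28-fold difference (log2 1.19 ± 0.17 SE, edgeR adjusted p = 0.00334). Srebf1 was at 42.7, 54.5 and 35.1 CPM in QJSB against 19.6 to 23.8 CPM in leucogen (1.96-fold, edgeR adjusted p = 0.00689). Ebp was even within QJSB (40.9, 38.1 and 37.3 CPM) and stood at 21.6, 25.0 and 17.9 CPM in leucogen (1.76-fold, edgeR adjusted p = 0.00755). In each of the 3 genes the lowest QJSB library lay above the highest leucogen library, and each call was kept in 15 of 15 alternatives.

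Abca1 was at 59.3, 77.0 and 61.3 CPM in QJSB and at 38.3, 46.7 and 34.4 CPM in leucogen (1.61-fold, edgeR adjusted p = 0.0147). Abcg1 was at 33.4, 56.4 and 54.3 CPM in QJSB and 21.6, 29.3 and 30.5 CPM in leucogen (1.73-fold, edgeR adjusted p = 0.0348). Both pumps were below normal in leucogen, by log2 -1.01 for Abca1 and -0.67 for Abcg1 (edgeR adjusted p = 5.96e-05 and 0.00205), while against normal neither was called in QJSB (log2 -0.30 and 0.13). Mylip stayed low in both, at 18.3, 24.7 and 23.7 CPM in QJSB (0.326 of normal, edgeR adjusted p = 0.000168) and 0.238 of normal in leucogen (edgeR adjusted p = 4.86e-06). Cyp51 and Msmo1 had negative estimates here (log2 -0.51 and -0.49), and neither was called. Without QJSB replicate 2 the count of called members was 6, of which Msmo1 was lower in QJSB, beside 20.5% of all genes. Without leucogen replicate 3 the count was 3, beside 10.5%. It was 5 without leucogen replicate 1, beside 14.7%, and 6 without leucogen replicate 2, beside 19.8%. With all libraries the share over all genes was 24.6%, so calls fell over all genes too. The calls of Acat2, Mvd, Nsdhl and Abcg1 were each lost on leaving out any of 5 of the 6 libraries. Abcg1 and Mvd kept theirs only without QJSB replicate 1, and Acat2 and Nsdhl only without QJSB replicate 3. For Abcg1 the log2 fold change then ran from 0.648 to 0.891 with edgeR adjusted p of 0.0736 to 0.122. Srebf2 was lost without QJSB replicate 2 or any 1 leucogen library (log2 0.545 to 0.813), Abca1 without QJSB replicate 2 or leucogen replicate 1 or 3 (log2 0.584 to 0.662), and Fdps and Dhcr7 without leucogen replicate 3 (log2 0.715 and 0.757). Promyelocyte genes did not overlap between QJSB and leucogen (8281 to 9119 and 3457 to 4618 CPM), whose part in these differences was not tested.

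**Figure D5:**
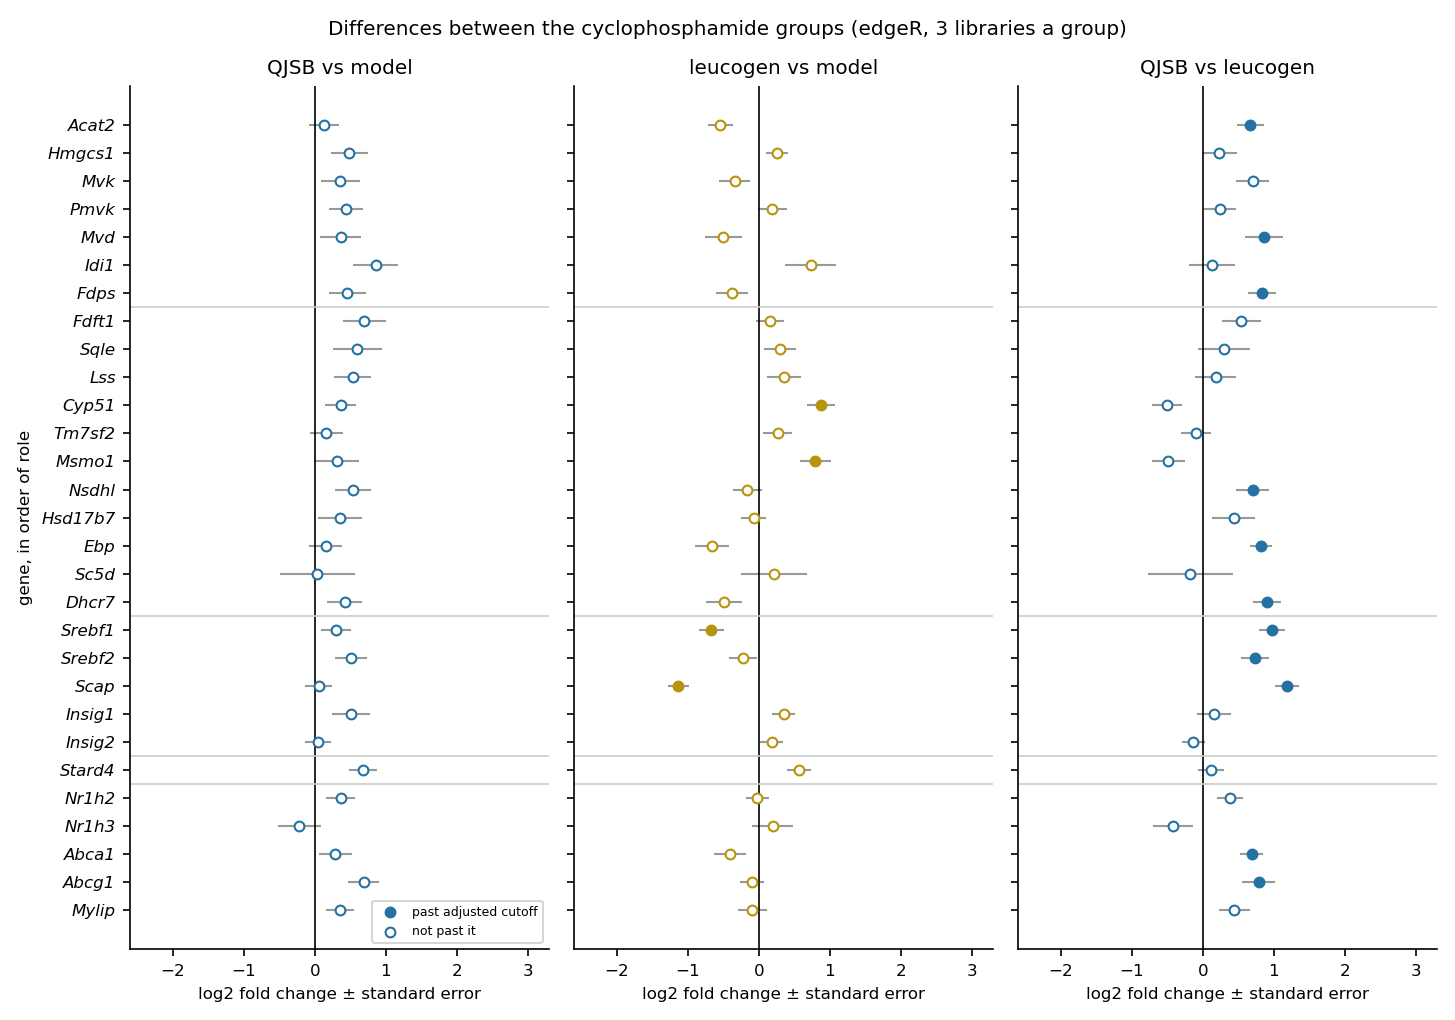
Log2 fold change with its standard error of the 29 genes in the 3 comparisons between cyclophosphamide groups (edgeR, 3 libraries a group). Filled points passed the adjusted cutoff, which 0 did for QJSB against model, 4 for leucogen against model and 11 for QJSB against leucogen.

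Levels between genes are given as the deposited FPKM, which per the study's methods divides by transcript length. The lengths used are not given. For Nr1h2 in normal, 27.9 CPM over 3.17 FPKM is more kilobases than its locus holds (chr7:44549616-44553951). The order below is therefore that of the deposited values and may not be that of transcript levels. In normal marrow Mylip led the 29 members with 21.9 ± 2.22 FPKM (SD, n = 3), followed by Srebf2 with 12.2 ± 0.89, Abcg1 with 10.3 ± 0.55 and Hmgcs1 with 10.3 ± 0.09 FPKM. Abcg1 and Hmgcs1 did not differ beyond their spread. In model Hmgcs1 led with 23.1 ± 2.19 FPKM, ahead of Srebf2 (18.2 ± 3.63) and Insig1 (12.6 ± 1.54), and it also led in QJSB (30.3 ± 10.0) and leucogen (24.6 ± 2.30). Fdps went from place 19 of 29 in normal (2.08 ± 0.09 FPKM) to place 5 in model (11.3 ± 3.10). Lss was the lowest member in normal at 0.366 ± 0.01 FPKM, although its mean of 6.83 CPM there was above those of Mvd (2.57) and Nr1h3 (3.90).

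Genes around the pathway, in 5 lists, were counted in the comparison of model with normal, where 16.1% of all genes tested rose and 19% fell. Of 15 tested genes of sterol storage and trafficking 9 rose and 0 fell, with a median log2 fold change of 0.751 beside 0.024 over all genes. The largest rises were those of Soat2, an enzyme that esterifies cholesterol for storage (4.28-fold, 1.11 to 4.82 CPM, edgeR adjusted p = 0.0363), and of Vldlr, a lipoprotein receptor that Mylip targets (3.74-fold, 2.96 to 11.2 CPM, edgeR adjusted p = 0.000423). Of 10 other isoprenoid and sterol enzymes 2 rose and 1 fell (median log2 0.388), beside 16.1% and 19% of all genes. Dhdds, of dolichol synthesis, rose 1.73-fold, while Ggps1, which makes geranylgeranyl diphosphate, fell to 0.636 of normal.

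The 10 genes of SREBP processing and turnover were split, with 3 higher and 3 lower (median log2 -0.083), beside the same 16.1% and 19%. Erlin1 (1.96-fold) and the protease gene Mbtps2 (1.75-fold), which cuts SREBP in the Golgi, rose, and the ubiquitin ligase genes Rnf145 (0.271 of normal) and Rnf139 (0.368 of normal) fell. Of 14 genes of fatty acid synthesis that Srebf1 is known to drive, 6 rose and 4 fell (median log2 0.499), against those shares of all genes. Elovl5 (2.80-fold) and Fasn (2.46-fold) rose, whereas the malic enzyme gene Me1 went from 33.5 to 2.19 CPM (log2 -3.94, edgeR adjusted p = 1.90e-05) and the desaturase gene Scd1 from 137.8 to 17.8 CPM (log2 -2.96, edgeR adjusted p = 0.00288). Of 10 tested LXR partners and targets 1 rose (Smpdl3a, 1.54-fold) and 4 fell, among them Cd5l (0.316 of normal), a macrophage gene, and Pltp (0.510 of normal), a lipid transfer protein gene. Their median log2 fold change was -0.215, and the shares over all genes were again 16.1% higher and 19% lower.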

How the data were processed

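Per the labels and the study's methods, RNA of femoral marrow was depleted of ribosomal RNA, made into strand-specific libraries and sequenced, and the authors mapped the reads with HISAT2 to GRCm38 (mm10). The counting program, its strand setting and the annotation version are not given in the sources used here. The authors deposited the read count of each gene and library, unnormalized, and FPKM. Their methods give its formula from fragments, transcript length and library total, but not the lengths used. Totals of 11172547 to 18545198 counts limit counting error only, and every pair of libraries within a group differed by more than that (chi-square per degree of freedom from 10.2 upward).

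The columns are headed Blank, Model, Positive and Stilbene. Blank was taken for normal and Positive for leucogen by meaning, and Stilbene for QJSB by elimination. Base means in the study's supplement were used afterwards as a check, in which 298, 300 and 300 of 300 listed genes lay within 1% under this reading and at most 10 under any other. That check rests on values. Each sample is labelled as a group and a number, and the methods give 1 mouse per library.

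Counts were tested with edgeR 4.0.16 (TMM, filterByExpr, robust quasi-likelihood fit) in R 4.3.3, for 2 groups at a time. The standard error is the log2 fold change divided by the root of F. On simulated QJSB and model counts for 14471 genes, edgeR recovered 124 of 199 changed genes (91 with 4-fold and 33 with 2-fold changes) with 11 false calls. Alternatives were DESeq2 1.42.0 and its size factors, total counts, a fit over all 12 libraries, the replicate block, no filter, a minimum of 10 counts per library, limma 3.58.1 on log2(FPKM + 0.1) and log2(FPKM + 1), and each library left out. Deviations of same-numbered libraries correlated at 0.426, 0.122 and 0.107 over 15310 genes for QJSB and model. For QJSB and leucogen they correlated at 0.181, 0.134 and 0.078, and in the remaining comparisons from -0.122 to 0.106. Libraries with different numbers were not correlated, so these values cannot show whether a number pairs libraries. The labels do not state what a number marks.

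All 29 members are named, and of each neighbouring lipid list up to 2 rises and 2 falls past the adjusted cutoff in model against normal. Some genes that this rule would name are not reported here. The members and lists were chosen with earlier results of these data known. Loci are those of the table, checked against GENCODE M21, in which 22 of the 29 had the same coordinates, 14 overlapped another gene and 10 of these overlapped one on the opposite strand. Promoters came from RefSeq.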

Additional observations from a re-analysis of the deposited data

How the results depend on the processing

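No called member changed sign under any alternative, whereas estimates of up to 6 members that were not called did so under 1 alternative, in QJSB against leucogen without QJSB replicate 2. Counts of called members stayed within 1.5 times of those reported except as follows. For QJSB against model, where 4 members passed the study's cutoff, total counts in place of TMM gave 2, beside 3% of all genes. There limma-trend gave 1 on log2(FPKM + 0.1), beside 3.46%, and 1 on log2(FPKM + 1), beside 1.73%. For leucogen against model, total counts gave 8 at the study's cutoff in place of 5, beside 32.8% of all genes. For leucogen against normal, limma-trend on log2(FPKM + 1) gave 9 at the adjusted cutoff and 9 at the study's cutoff in place of 16 and 16. The shares over all genes were 25.3% and 25.8% with that pseudocount. That pseudocount shrinks the change of low genes, and the members lost were Mvk, Mvd, Sqle, Lss, Tm7sf2, Nsdhl and Hsd17b7. Leaving out 1 library gave 0 to 9 members for QJSB against model at the study's cutoff, beside 1% to 11.6% of all genes. For leucogen against model it gave 1 to 8 at the adjusted cutoff, beside 8.44% to 27.2% of all genes. At the study's cutoff it gave 3 to 8 there, beside 24.5% to 33.1%. For QJSB against leucogen it gave 3 to 11 at the adjusted cutoff, beside 10.5% to 24.9%. The causes of the other shifts were not tested. Total counts shifted the log2 median over every gene tested to 0.144 in model against normal, -0.224 in leucogen against model and 0.119 in QJSB against leucogen.

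With the replicate number as a block, QJSB against model gave 0 members at the adjusted and 3 at the study's cutoff, while over all genes the calls went from 446 to 830 at the study's and from 0 to 18 at the adjusted cutoff. What a shared number marks is not stated for any comparison. At the adjusted cutoff the block gave 16 members in model against normal, beside 33.4% of all genes. It gave 3 in leucogen against model (without Srebf1), beside 19.3%. It gave 21 in QJSB against normal, 15 in leucogen against normal and 11 in QJSB against leucogen, beside 34.8%, 36.6% and 25.8%. Each library held at least 30 counts of every member. The spread between mice was widest for Idi1 in normal, with a coefficient of variation of 73.2%.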
